A study of Mus musculus with 29 samples.

Results

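The response to transforming growth factor beta (TGFβ) was examined in tumour cells that had first been exposed to interferon gamma (IFNγ). The cells are NMM, a mouse melanoma line with mutant NRAS. They received 100 ng/ml IFNγ for 2, 6, 12 or 24 h, were washed with PBS, and were then kept for 24 h with either 10 ng/ml TGFβ or medium alone. These sequences, IFNγ then TGFβ and IFNγ then medium, comprise 4 libraries each, 1 per IFNγ duration, and thus 8 of the 29 mRNA libraries of the series. They were grouped by their stimulus labels, without any measured value, although the comparison was chosen with earlier results of these data known. Libraries of equal IFNγ duration were set side by side. Both sides therefore share the IFNγ exposure and the wash, and only the second stimulus differs. For comparison, 8 further libraries had medium first for the same durations and then TGFβ or medium. The labels name no repeat cultures within a duration, so each sequence has its 4 durations in place of replicates. The p-values then measure the spread between libraries, which may be technical in part. In the main test this spread was estimated from all 29 libraries of the series, with the other stimulus sequences included. A single line was used, and the libraries hold its bulk RNA, in which fewer responding cells and less RNA per cell cannot be told apart.

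TGFβ binds a complex of type I and type II receptor kinases at the cell surface, which phosphorylate SMAD2 and SMAD3. With SMAD4 these enter the nucleus and regulate genes of the extracellular matrix, of adhesion and of feedback inhibition, among them the inhibitory SMAD genes. IFNγ acts through JAK kinases on a different programme, which includes antigen presentation, guanylate-binding GTPases, chemokines and the T cell inhibitory ligand PD-L1. In melanoma, TGFβ is known for a mesenchymal, invasive cell state, and IFNγ as a T cell cytokine that alters how tumour cells are recognised.

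Library totals lay between 18745818 and 21590675 counts after IFNγ then TGFβ and between 17385810 and 20012843 after IFNγ then medium. The share of mitochondrially encoded transcripts was 0.977% to 1.25% and 1.03% to 1.31% in the same order. Levels are given as CPM, the counts relative to the scaled library sizes. Of 8 melanocyte markers only Mitf (8.61 to 15.6 CPM over both groups) and Gpnmb (78.1 to 276 CPM) reached 1 CPM, Pmel and Sox10 stayed at or below 0.27 CPM, and 4 (Tyr, Tyrp1, Dct and Mlana) had no row in the table used here. The summed melanocyte markers were 89.8 to 155 CPM with TGFβ and 173 to 290 CPM without. Of 10 leukocyte markers 4 (Cd3e, Cd8a, Itgam and Adgre1) had no row. Of the other 6 only Cd14 (26.8 to 50.8 CPM) and Cd68 (3.61 to 6.18 CPM) exceeded 1 CPM. Ptprc, the pan-leukocyte antigen, reached at most 0.0528 CPM, and the list summed to 30.4 to 52.6 CPM with TGFβ and 40.9 to 56.3 CPM without. The fibroblast markers Col3a1, Dcn and Pdgfra were present, Col1a1 and Lum were near 0, and Thy1 had no row. Their sums were 491 to 660 CPM with TGFβ and 597 to 878 CPM without. Of the endothelial markers Cdh5 and Plvap were present and Kdr was at 0, with sums of 22.4 to 29.8 and 23.6 to 29.5 CPM. The 3 epithelial markers summed to at most 0.729 CPM. The part of such cells in the results was not tested. The 6 h library of medium then medium stood apart from the other 3 medium controls. For Ptgfr, which encodes a prostaglandin receptor, it held 254.4 CPM against at most 58.1 CPM. It enters the comparison after IFNγ only through the shared estimate of the spread and the duration terms, and counts are therefore also given without it.

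TGFβ changed 1084 of 14935 genes tested in IFNγ-pretreated cells, or 7.26%, at an adjusted p below 0.05 in edgeR's quasi-likelihood test. Of these 541 rose (3.62% of the genes tested) and 543 fell (3.64%). Most changes were small, with a median absolute log2 fold change of 0.481, while 115 genes rose and 120 fell at least 2-fold. Of the 1084 genes, 1078 went the same way at all 4 IFNγ durations, and in 806 the 4 TGFβ libraries did not overlap with the 4 medium libraries. Over all genes tested, 18.6% were higher and 18.8% lower at all 4 durations, and 5.36% and 5.66% had groups that did not overlap in these directions. The number of calls depended on how the spread was estimated. It was 1581 without the 6 h medium library (10.6%, with 809 higher and 772 lower) and 488 in the fit of all libraries without the duration term. It was 3177 of 13195 genes (24.1%) when only the 8 libraries of this comparison were fitted with their durations paired. Of the 1084 genes, 1083 were also called without the 6 h medium library, and 1039 were called in the same direction in the 8-library fit.

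The 12 highest and the 12 lowest fold changes were taken among called genes, predicted ones aside, that averaged at least 5 CPM in 1 group and went the same way at all 4 durations. Tfpi2, the highest of these, which encodes a secreted inhibitor of serine proteases, lay at 6.50, 8.19, 7.12 and 8.70 CPM after IFNγ for 2, 6, 12 and 24 h and then TGFβ, and at 0.682, 0.888, 0.677 and 0.766 CPM after IFNγ and then medium. All 4 TGFβ libraries were thus far above all 4 medium libraries, 10.1-fold on average (log2 fold change 3.33, SE 0.29, adjusted p = 6.31e-08). Mmp12, the macrophage elastase, had 17.5, 21.6, 21.8 and 41.4 CPM with TGFβ and 1.57, 2.28, 3.12 and 5.12 CPM without (log2 fold change 3.06, SE 0.30, adjusted p = 3.6e-07). The 24 h library was the highest on both sides. Of these 12 genes Tnnt2, cardiac troponin T, had the smallest p-value, with 454, 530, 482 and 380 CPM against 135, 152, 123 and 88.1 CPM (log2 fold change 1.90, SE 0.10, adjusted p = 6.46e-12). The 24 h libraries were the lowest on both sides, and the groups did not overlap. Ggct, an enzyme of glutathione turnover, rose from 12.8 ± 0.878 to 56.2 ± 4.4 CPM (SD, n = 4), and Fbln2, the matrix glycoprotein fibulin 2, from 28.9 ± 3.4 to 109 ± 2.17 CPM (SD, n = 4). Others among the 12 highest were Hmgcll1, an enzyme of ketone body metabolism (2.72), the G protein subunit Gng11 (1.80), the scaffold protein whirlin, Whrn (1.79), Adamtsl3 (1.71), Sdcbp2 (1.68) and the G protein regulator Rgs17 (1.60). In all 12 the groups did not overlap. The call of Sdcbp2 (adjusted p = 0.0116) was lost in 3 of the 12 fits that left out a duration or a library, with adjusted p = 0.0851 without the 6 h library of IFNγ then TGFβ.

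At the other end of this order Dcdc2a, a doublecortin domain protein, fell from 5.5, 2.5, 6.19 and 6.18 CPM to 1.16, 0.687, 0.936 and 1.08 CPM (log2 fold change -2.40, SE 0.43, adjusted p = 0.000702). Its 6 h library was the lowest on both sides. The water channel Aqp5 had 6.45, 7.72, 5.93 and 8.71 CPM without TGFβ and 1.11, 1.37, 1.61 and 1.85 CPM with it (-2.28, SE 0.41, adjusted p = 0.000857). Scara5, a scavenger receptor that binds ferritin, fell from 22.3 ± 3.35 to 5.3 ± 1.15 CPM (SD, n = 4), and Cp, the iron-oxidising plasma protein ceruloplasmin, from 25.9 ± 5.48 to 8.3 ± 2.04 CPM (SD, n = 4). The prostaglandin receptor gene Ptgfr fell by 1.72 and carboxypeptidase M, Cpm, by 1.89 on the log2 scale. The others were Tinagl1 (-1.90), the surface protein Ly6a (-1.85), the extracellular superoxide dismutase Sod3 (-1.79), the phosphodiesterase Pde8b (-1.62), Plvap, a protein of endothelial diaphragms (-1.62), and the cytoskeletal regulator Cyfip2 (-1.62). The groups overlapped for Ly6a, whose 6 h TGFβ library (20.1 CPM) lay above the 12 h medium library (16.2 CPM), and for none of the other 11. Ly6a is also uncertain because reads of the related Ly6 genes may be shared. The calls of Sod3 (7 of 12 fits, adjusted p up to 0.158), Cyfip2 (4 of 12, up to 0.0904) and Ly6a (4 of 12, up to 0.0822) were lost in some fits that left out a duration or a library. The highest p of Sod3 and Cyfip2 came without the 12 h libraries, and that of Ly6a without the 2 h libraries. DESeq2 did not call Ly6a.

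**Figure D1:**
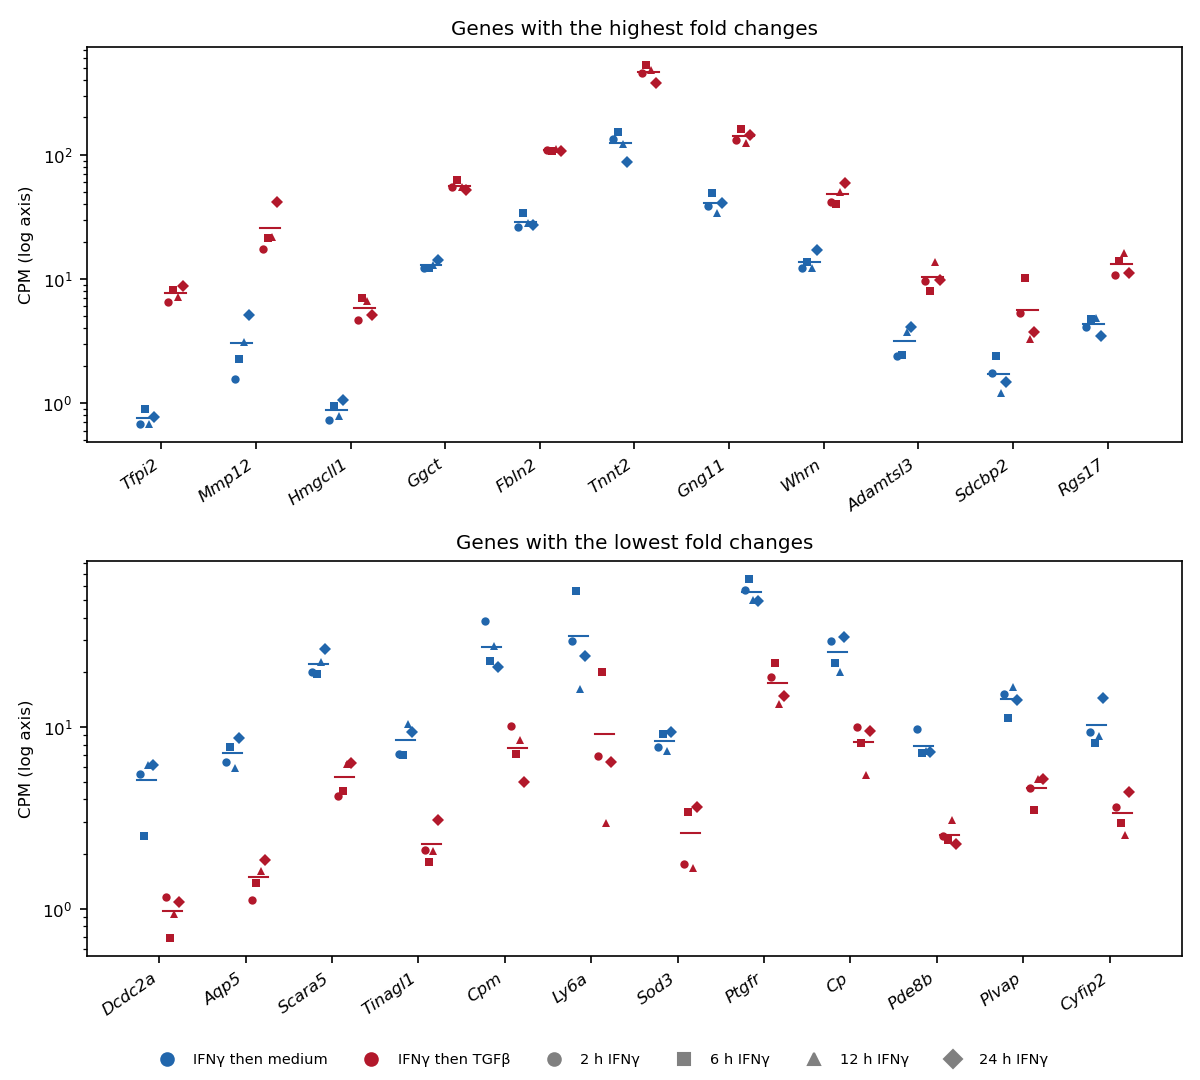
CPM (log axis) of genes among the 12 with the highest and the 12 with the lowest log2 fold change, as chosen above 5 CPM among called genes, in the 4 libraries of IFNγ then medium (blue) and the 4 of IFNγ then TGFβ (red); symbols mark the IFNγ duration and bars the mean. The red and blue symbols do not overlap except for Ly6a.

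The promoters of the genes at the 2 ends of this order, Tfpi2 and Dcdc2a, are shown because CAGAC, the SMAD-binding element, is a letter string that TGFβ genes are often searched for. They run from 250 bases before to 50 bases after a transcription start in RefSeq (GRCm38.p6), on the gene's own strand, with CAGAC matches on that strand in capitals.
Tfpi2, chr6:3988809-3989108, minus strand: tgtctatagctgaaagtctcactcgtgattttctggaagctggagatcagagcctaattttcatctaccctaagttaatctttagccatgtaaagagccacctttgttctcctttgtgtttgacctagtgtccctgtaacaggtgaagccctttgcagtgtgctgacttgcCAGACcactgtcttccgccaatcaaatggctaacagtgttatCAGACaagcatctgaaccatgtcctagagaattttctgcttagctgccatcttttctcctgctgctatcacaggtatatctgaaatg
Dcdc2a, chr13:25055754-25056053, plus strand: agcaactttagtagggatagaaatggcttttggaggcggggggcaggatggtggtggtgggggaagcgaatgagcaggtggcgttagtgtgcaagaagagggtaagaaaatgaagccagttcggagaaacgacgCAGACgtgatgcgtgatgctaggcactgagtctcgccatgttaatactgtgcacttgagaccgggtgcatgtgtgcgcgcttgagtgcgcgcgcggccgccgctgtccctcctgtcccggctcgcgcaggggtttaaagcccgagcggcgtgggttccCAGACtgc
Both windows held 2 matches. RefSeq lists 2 further starts of Tfpi2, of which the one with a window that overlaps the sequence shown also held 2, and the other, chr6:3968326-3968625, held 0 CAGAC and 1 match of the AP-1 string. CAGAC, on either strand, stood in 53.4% of the 401 promoters found for genes that rose, in 53.6% of the 407 found for genes that fell and in 52.2% of the 10062 found for all genes tested. The AP-1 string TGANTCA stood in 9.73%, 10.1% and 6.44%, and the interferon-type string of GAAA, any 2 bases and GAAA in 2.49%, 5.41% and 3.81% in the same order. These shares describe letters in a window and not bound sites.

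Of 12 genes of negative feedback of the TGFβ pathway 4 rose, 0 fell and 8 did not pass, where 3.62% of all genes tested rose and 3.64% fell. The list median was 0.13 against -0.00 over all genes tested. Pmepa1, which binds receptor-activated SMADs, had 210, 228, 190 and 242 CPM with TGFβ and 112, 120, 91.2 and 115 CPM without (log2 fold change 0.99, SE 0.11, adjusted p = 1.99e-06). Its groups lay far apart. Smad7, the inhibitory SMAD, had 54, 50.1, 61 and 64.7 CPM with TGFβ and 38.7, 31.9, 36.5 and 40 CPM without, and rose by 0.64 (SE 0.11, adjusted p = 0.000719). Ldlrad4, a membrane protein that competes for SMAD2 and SMAD3, rose by 0.84, and Skil, the transcriptional corepressor SnoN, by 0.31 (adjusted p = 0.000544). Skil lay at 231, 225, 212 and 187 CPM with TGFβ and at 199, 183, 160 and 149 CPM without, so the groups overlapped although TGFβ was higher at each duration. The corepressors Tgif1 (0.22, adjusted p = 0.139) and Ski (0.13, adjusted p = 0.383) and the inhibitory Smad6 (-0.13, adjusted p = 0.725) did not pass.

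Of 10 receptors and coreceptors 0 rose, 2 fell and 8 did not pass, against the same 3.62% and 3.64% of all genes, and the list median was 0.01. Tgfbr3, the coreceptor betaglycan, had 45.5, 49.7, 38.5 and 29.1 CPM with TGFβ and 77.4, 92.1, 69 and 62.7 CPM without (-0.90, SE 0.13, adjusted p = 4.85e-05). Every TGFβ library lay below every medium library. Tgfbr1, the type I receptor, fell from 128 ± 11.3 to 99.8 ± 9.26 CPM (SD, n = 4, with a log2 fold change of -0.37, adjusted p = 0.0121). Tgfbr2, the type II receptor, had -0.18 (adjusted p = 0.166), and 0.0235 without the 6 h medium library. The coreceptor endoglin, Eng, had -0.08 (adjusted p = 0.684). The remaining 6, activin and bone morphogenetic protein (BMP) receptors, had log2 fold changes of -0.00 to 0.18.

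Of 8 genes of the ligand list, which also holds the protease gene Bmp1, 2 rose and 2 fell. Over all genes tested 3.62% rose and 3.64% fell. Bmp4, a BMP, fell from 10.7 ± 1.69 to 6.4 ± 1.27 CPM (SD, n = 4, with a log2 fold change of -0.75, adjusted p = 0.000248), and Inhbb, an activin subunit, from 5.28 ± 0.963 to 2.49 ± 0.285 CPM (SD, n = 4, with a log2 fold change of -1.08, adjusted p = 0.0245). Inhba, the other activin subunit, was abundant, with 1081, 1218, 971.2 and 913.8 CPM with TGFβ and 984, 854.2, 791.3 and 687.8 CPM without (0.33, adjusted p = 0.0284). The groups overlapped, with TGFβ higher at each duration. Bmp1, which encodes a protease that processes procollagen and is no TGFβ-family ligand, rose by 0.34 (adjusted p = 0.0466). Tgfb1 itself had 0.16 (adjusted p = 0.486). Of 8 latency and activation genes the latent TGFβ-binding protein Ltbp4 rose by 0.57 (adjusted p = 0.000996) and Ltbp1 fell by 0.33 (adjusted p = 0.0329). Of 10 SMADs and SMAD partners 1 rose, the BMP-type Smad5 (0.18, adjusted p = 0.0454), and 0 fell, while Smad2 had 0.07 (adjusted p = 0.486) and the shared Smad4 0.04 (adjusted p = 0.702). The calls of Tgfbr1, Inhbb, Inhba, Bmp1, Ltbp1 and Smad5 were lost in 3 to 10 of the 12 fits that left out a duration or a library, with adjusted p up to 0.149, 0.117, 0.136, 0.281, 0.198 and 0.328, for Ltbp1 without the 2 h libraries and for the others without the 12 h libraries. That of Bmp1 was also lost with DESeq2's size factors in edgeR. Those of Pmepa1, Smad7, Ldlrad4, Skil, Tgfbr3, Bmp4 and Ltbp4 were kept in all 12. Without the duration term the call of Tgfbr3 was lost (adjusted p = 0.0669 in edgeR). That of Skil was lost in the 8 libraries without the pairing.

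**Figure D2:**
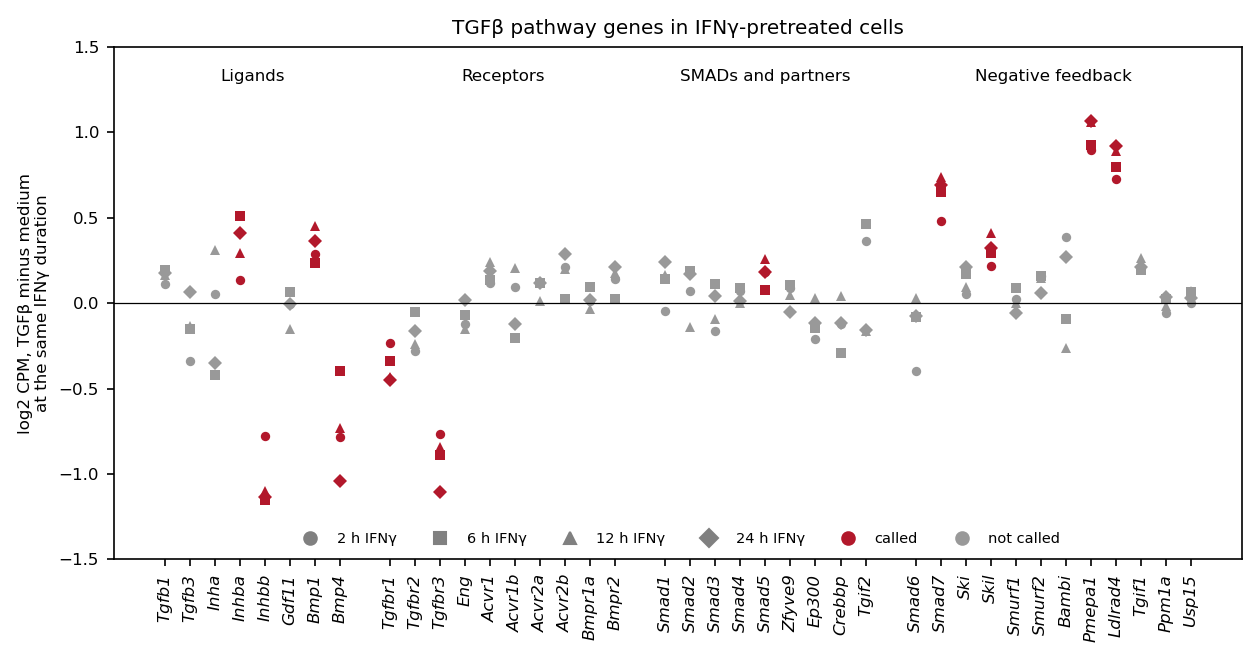
Difference in log2 CPM between IFNγ then TGFβ and IFNγ then medium at the same IFNγ duration (y axis) for the ligands, receptors, SMADs and feedback genes of the TGFβ pathway, with symbols for the duration and red for called genes; Tgif1, listed as SMAD partner and as feedback gene, is drawn once. Pmepa1, Ldlrad4 and Smad7 lie highest at every duration, and Inhbb, Bmp4 and Tgfbr3 lowest at 2, 12 and 24 h.

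Among 27 textbook target genes of TGFβ 10 rose and 1 fell (with the 6 h medium library left out 13 and 4, where 5.43% and 5.18% of all genes were called), with a list median of 0.21. Spsb1, an adaptor of a ubiquitin ligase, rose from 119 ± 9.77 to 222 ± 10.3 CPM (SD, n = 4, with a log2 fold change of 0.90, adjusted p = 2.43e-08), and Fstl3, a secreted activin antagonist, from 5.59 ± 1.04 to 10.3 ± 1.16 CPM (SD, n = 4). Others that rose were Mmp12 and the genes of the transcription factors Junb (0.42) and Snai1 (0.50), of Timp1 (1.13), an inhibitor of metalloproteinases, of the integrin subunit Itga2 (1.38), of the adhesion scaffold Nedd9 (0.75) and of fibronectin, Fn1 (0.69). The gene that fell was Id1, a target of BMP signalling (-0.68, adjusted p = 0.00284). Among 31 matrix remodelling genes 6 rose and 3 fell. With all libraries fitted, 3.62% of all genes rose and 3.64% fell. Besides Mmp12 and Timp1, the metalloproteinase Mmp10 rose by 0.65 (its call was lost without the 12 h libraries, adjusted p = 0.055), while the metalloproteinase Mmp19 (-0.61), the protease Adamts1 (-0.44) and the collagen-modifying enzyme Plod1 (-0.31) fell. The calls of Adamts1 and Plod1 were lost in 9 and 10 of the 12 fits that left out a duration or a library (adjusted p up to 0.163 and 0.265, both without the 2 h libraries). Adam12, another metalloproteinase, lay at 0.65, 0.634, 0.988 and 0.856 CPM with TGFβ and at 0, 0.0555, 0.052 and 0.144 CPM without, too few reads for a stable fold change.

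Among extracellular matrix genes 8 rose and 10 fell with the 6 h medium library left out, against 5.43% and 5.18% of all genes. With all libraries 5 of 41 rose and 8 fell, against 3.62% and 3.64% of all genes, with a list median of -0.12. Those that rose were Fbln2, fibronectin, Fn1 (0.69), the type V collagens Col5a3 (0.80) and Col5a2 (0.77), and the laminin subunit Lamb1 (0.32). Fn1 was the most abundant of these, with 5925 ± 626.5 CPM without TGFβ and 9591 ± 1656 CPM with it (SD, n = 4; adjusted p = 0.0211). Those that fell included basement membrane genes, namely the laminin subunit Lamc1 (-0.39, adjusted p = 6.01e-05), nidogen, Nid1 (-0.67), and the type IV collagens Col4a2 (-0.37) and Col4a1 (-0.33), together with the fibrillin Fbn2 (-0.88), thrombospondin 2, Thbs2 (-0.94), Emilin1 (-0.45) and Efemp1 (-1.92). The calls of Fn1, Col5a2, Lamb1, Col4a1, Col4a2 and Emilin1 were lost in 3 to 8 of the 12 fits that left out a duration or a library, with adjusted p up to 0.16, 0.0708, 0.108, 0.197, 0.131 and 0.195, for Col4a1 without the 2 h libraries and for the others without the 12 h libraries. DESeq2 did not call Fn1. The type III collagen gene Col3a1, also a fibroblast marker, had -0.47 and did not pass (adjusted p = 0.291), whereas the fit that left out the 6 h medium library gave adjusted p = 0.0408.

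Of 22 integrin and adhesion genes 4 rose, 3 fell and 15 did not pass, with a list median of -0.08, where 3.62% of all genes rose and 3.64% fell. Itgb3, the β3 subunit, had 153, 143, 153 and 146 CPM with TGFβ and 74.6, 63.4, 70.8 and 73.3 CPM without, a 2.11-fold rise with hardly any spread (log2 fold change 1.08, SE 0.07, adjusted p = 2.6e-10). The β1 subunit Itgb1 rose from 1114 ± 45.2 to 1657 ± 56.1 CPM (SD, n = 4), the fibronectin receptor subunit Itga5 by 0.65 and the collagen receptor subunit Itga2 by 1.38. The adhesion molecule Vcam1, at 1.64 ± 0.281 CPM without TGFβ, fell by 1.78, Itgb7 by 1.17 and the laminin receptor subunit Itga6 by 0.37. Of 23 actin and epithelial-mesenchymal transition genes 5 rose and 1 fell. Besides Tnnt2 these were the transcription factors Zeb1 (0.33, adjusted p = 1.63e-05) and Snai1 (0.50), the actin-binding Tagln2 (0.55) and the tropomyosin Tpm4 (0.19), while the calcium-binding S100a4 fell by 1.35. The calls of Tpm4 and Itga6 were lost in 10 and 9 of the 12 fits that left out a duration or a library, and that of Itgb7 in 3, with adjusted p up to 0.185, 0.182 and 0.13, each without the 12 h libraries. Those of Tpm4 and Itga6 were also lost in the fit of 16 libraries and in that of 8 libraries without the pairing, and that of Tpm4 with DESeq2's size factors in edgeR. The call of Itga2 was lost in 1 of the 12 fits (adjusted p = 0.0599 without the 12 h libraries), as was that of S100a4 (adjusted p = 0.107 without the 2 h libraries).

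Of 24 secreted growth factors and genes of the insulin-like growth factor (IGF) axis 8 rose and 1 fell, against 3.62% and 3.64% of all genes, with a median of 0.10. Igfbp3, which binds insulin-like growth factors, had 390, 472, 466 and 503 CPM with TGFβ and 203, 222, 230 and 226 CPM without (1.06, adjusted p = 0.000242), and Igfbp7 rose from 24.9 ± 2.08 to 53 ± 2.41 CPM (SD, n = 4). The groups did not overlap for either. Fgf2, a fibroblast growth factor, rose from 20.4 ± 2.18 to 40.1 ± 4.81 CPM (SD, n = 4, with a log2 fold change of 0.98, adjusted p = 2.4e-05) and the angiogenic factor Vegfa from 984.2 ± 39.8 to 1449 ± 104 CPM (SD, n = 4, with a log2 fold change of 0.56, adjusted p = 0.00136). Others that rose were the platelet-derived factor Pdgfa (0.45), the cytokine Il11 (0.60) and the EGF-type ligand Hbegf (0.54), of which the last 2 had groups that overlapped and lost their calls in 5 to 8 of the 12 fits (adjusted p up to 0.122, for Hbegf without the 12 h libraries). Fgf7 fell by 0.64 (adjusted p = 0.00752), and its call was lost in 2 of the 12 fits (adjusted p up to 0.1, without the 12 h libraries).

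Interferon-type genes were lower with TGFβ in nearly every pair of libraries, but by amounts that did not pass the test over all 29 libraries. Among 19 GBP and IRG family GTPases 0 passed in either direction, although all 19 were lower at all 4 durations, against 18.8% of all genes tested, and the list median was -0.62. Of 35 antiviral genes 0 passed, 31 were lower at all 4 durations and the median was -0.34. MHC class I antigen presentation had 25 tested genes, of which 1 passed as higher and 0 as lower, 23 were lower at all 4 durations and the median was -0.31. The gene that rose was Psme3, a proteasome activator (0.20, adjusted p = 0.0165), and its call was lost in 6 of the 12 fits that left out a duration or a library (adjusted p up to 0.139, without the 2 h libraries). In the fit of the 8 libraries alone with paired durations, where 12.2% of all genes were called lower, 18 of 18 GTPases, 34 of 35 antiviral genes and 21 of 25 MHC class I genes were called lower. In the same 8 libraries without the pairing 0, 0 and 1 were called lower, and without the 6 h medium library in the fit of all others 0, 0 and 0. The groups did not overlap in 3 of the 19 GTPases, 0 of the 35 antiviral genes and 1 of the 25 MHC class I genes, against 5.66% of all genes in this direction.

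Oas2, a sensor of double-stranded RNA, shows this pattern. It had 62.3, 56.6, 23.7 and 26.4 CPM after 2, 6, 12 and 24 h of IFNγ and then TGFβ, and 114, 86.2, 52.1 and 55.1 CPM after IFNγ and then medium. At each duration TGFβ was lower, and on both sides the 12 and 24 h libraries lay below those of 2 and 6 h. Its log2 fold change was -0.94 (SE 0.60), with adjusted p = 0.427 in the test over all libraries and 1.07e-07 in the paired 8-library test. Cd274, which encodes PD-L1, had 14.6, 17, 6.66 and 6.4 CPM with TGFβ and 24.9, 22.4, 9.78 and 9.62 CPM without (-0.57, SE 0.43, adjusted p = 0.528, and 7.58e-05 in the 8-library test). The GTPase Gbp2 had 131, 196, 65 and 58.4 CPM with TGFβ and 230, 249, 114 and 89.6 CPM without (-0.62, adjusted p = 0.645, and 1.83e-06 in the 8-library test). Again each pair was lower with TGFβ, and the groups overlapped. H2-K1, an MHC class I heavy chain, had -0.30 (adjusted p = 0.666, and 1.55e-05 in the 8-library test) and the light chain B2m, at 1382 ± 192 CPM with TGFβ and 1564 ± 135 CPM without (SD, n = 4), had -0.19 (adjusted p = 0.765, and 0.000545 in the 8-library test). The antiviral genes Ifit2 (-0.76), Mx1 (-0.90) and Ifit1 (-0.60) and the GTPases Gbp4 (-1.08) and Tgtp1 (-0.77) had adjusted p from 0.144 to 0.488 over all libraries. Members of the Gbp, Ifit and H2 families are uncertain where shared reads were split or dropped.

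Of 12 chemokines 0 passed, with a list median of -0.24. At all 4 durations 6 were lower and 2 higher, where 18.8% and 18.6% of all genes tested were. In the paired 8-library fit 5 of 7 were called lower and 0 higher, against 12.2% and 11.9% of all genes. Cxcl10, a T cell attractant, had 93, 124, 27.6 and 21.3 CPM with TGFβ and 150, 116, 39.4 and 30.2 CPM without, lower with TGFβ at 3 of 4 durations (-0.33, adjusted p = 0.849). Cxcl9 stayed at or below 1.22 CPM in all 8 libraries, and Ccl2, a monocyte attractant, had -0.64 (adjusted p = 0.38). Of 20 IFNγ signalling genes 12 were lower and 2 higher at all 4 durations, against the same 18.8% and 18.6% of all genes. The list median was -0.17. In the paired 8-library fit 11 of 19 were called lower and 2 higher, where 12.2% and 11.9% of all genes were. Over all libraries 0 rose and 1 fell, the phosphatase gene Ptpn6 (-0.62, adjusted p = 0.000876), with 11, 10.7, 12.7 and 11.4 CPM with TGFβ and 19.7, 16.4, 18.6 and 15.9 CPM without. Irf1, the transcription factor, had -0.16 (adjusted p = 0.806), and Irf8 0.30 (adjusted p = 0.133, and 0.0472 without the 6 h medium library).

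**Figure D3:**
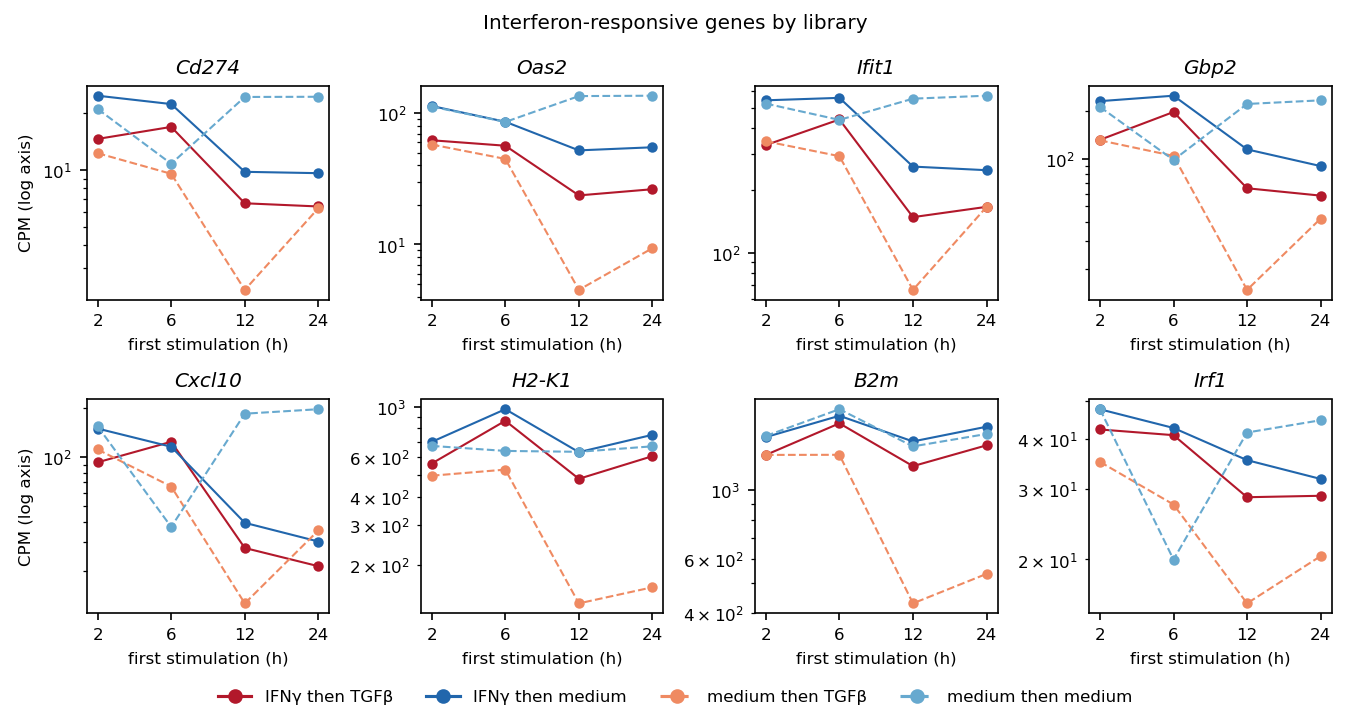
CPM (log axis) of 8 interferon-responsive genes against the duration of the first stimulation (2, 6, 12 and 24 h, evenly spaced), 1 point per library, for IFNγ first (solid lines) and medium first (dashed lines). After IFNγ the TGFβ line (dark red) runs below the medium line (dark blue) and parallel to it in most panels, as for Oas2 with 23.7 against 52.1 CPM at 12 h.

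T cell ligands moved in both directions, with 2 higher and 1 lower of 14, where 3.62% of all genes rose and 3.64% fell. Nt5e, the ecto-enzyme CD73 that makes adenosine, had 217, 222, 210 and 186 CPM with TGFβ and 95.9, 94, 89 and 79.3 CPM without, a 2.33-fold rise (log2 fold change 1.22, SE 0.09, adjusted p = 8.39e-09). The groups lay far apart. Cd276, the ligand B7-H3, rose by 0.39 (adjusted p = 0.00928), and galectin 3, Lgals3, fell from 54 ± 11 to 25.2 ± 8.04 CPM (SD, n = 4; -1.10). Of the 4 melanocyte genes tested the lineage transcription factor Mitf fell by 0.40 (adjusted p = 0.00485) and the glycoprotein Gpnmb by 1.00 (adjusted p = 0.0217), from 160, 189, 179 and 276 CPM to 78.1, 106, 78.4 and 146 CPM. Of 17 genes of the undifferentiated melanoma state 3 rose and 0 fell, Nt5e, Zeb1 and the growth factor receptor Egfr (0.88, adjusted p = 0.000434). The calls of Cd276, Mitf and Gpnmb were lost in 2, 2 and 8 of the 12 fits that left out a duration or a library (adjusted p up to 0.0858 without the 2 h libraries, and up to 0.0809 and 0.197 without the 12 h libraries). Of the 10 fibroblast and endothelial markers Cdh5, VE-cadherin, rose by 0.83 (adjusted p = 0.00301) and Plvap fell.

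Of 32 genes of G1/S and replication 1 rose and 0 fell, the transcription factor Myc, from 204 ± 37.7 to 287 ± 33.3 CPM (SD, n = 4, with a log2 fold change of 0.51, adjusted p = 0.01). Its call was lost in 4 of the 12 fits that left out a duration or a library (adjusted p up to 0.0911, without the 12 h libraries). Of 27 genes of G2/M 0 rose and 0 fell, with a median of 0.02. In the ERK pathway the feedback phosphatase Dusp5 rose by 0.88 and the feedback inhibitor Spry1 fell by 0.82, 1 and 1 of 20, and in the stress response Ddit4, an inhibitor of mTORC1, rose by 0.70 (1 higher and 0 lower of 24). Of 29 cell death genes 0 rose and 2 fell, the survival gene Bcl2l1 (-0.31) and the TNF receptor gene Tnfrsf1a (-0.24). For this and the other lists here, 3.62% of all genes rose and 3.64% fell. The median of the cell death list was -0.22, and 16 of the 29 were lower at all 4 durations (18.8% of all genes). In the paired 8-library fit 14 were called lower (12.2% of all genes). The call of Spry1 was lost in 9, that of Tnfrsf1a in 7, and those of Bcl2l1 and Ddit4 in 1 of the 12 fits (adjusted p up to 0.172, 0.097, 0.0833 and 0.0646, for Spry1 without the 2 h libraries and for the others without the 12 h libraries). Of 20 p53 targets 0 rose and 2 fell, the kinase gene Plk2 (-0.83) and Trp53inp1 (-0.38), and of 20 genes of the NF-kB pathway and its targets 1 rose, the subunit Nfkb1 (0.19), and 2 fell, Vcam1 and Bcl3 (-0.75), a nuclear member of the IkB family. Of 10 complement genes 0 rose and 2 fell, among them the chaperone clusterin, Clu (-0.60).

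Of 30 glycolysis and hypoxia genes Vegfa rose, and Car12 (-0.39) and the enolase Eno2 (-0.70) fell. Of 30 genes of cholesterol and fatty acid synthesis, acetyl-CoA carboxylase, Acaca (0.26), and ATP citrate lyase, Acly (0.17), rose and their transcriptional activator Srebf1 (-0.26) fell. These are 3 of 30 in either list, where 7.26% of all genes were called. Of the glycolysis and hypoxia genes 14 were lower and 4 higher at all 4 durations (18.8% and 18.6% of all genes), with a list median of -0.10. In the paired 8-library fit 10 of 28 were called lower and 4 higher (12.2% and 11.9% of all genes). After medium 12 of the 30 rose and 1 fell (11.7% and 11.6% of all genes), with a median of 0.23. A difference between the first stimuli was not tested for this list. Of 11 mitochondrially encoded genes 0 rose and 0 fell. The calls of Trp53inp1, Nfkb1, Bcl3, Clu, Car12, Eno2, Acaca, Acly and Srebf1 were each lost in 1 to 10 of the 12 fits that left out a duration or a library (adjusted p up to 0.309 for Srebf1 without the 2 h libraries), and that of Plk2 in none. The call of Plk2 was lost without the duration term (adjusted p = 0.242 in edgeR). Of 14 reference genes 1 rose, Ywhaz (0.24), and the list median was -0.00.

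The same second stimulus given after medium instead of IFNγ called 3476 genes (23.3%), of which 1740 rose (11.7%) and 1736 fell (11.6%). With that 6 h medium library left out it called 3135 (21.0%), with 10.4% higher and 10.6% lower. The 2 comparisons share no library. Of the 541 genes that rose after IFNγ, 466 also rose after medium, which is 86.1% of the first list and 26.8% of the second, and of the 543 that fell, 444 also fell, which is 81.8% and 25.6%. Without the 6 h medium library 641 genes rose in both, which is 79.2% of the list after IFNγ and 41.3% of that after medium, and 530 fell in both, which is 68.7% and 33.5%. With or without that library no gene was called in opposite directions. Among genes that rose after medium the median log2 fold change was 0.33 there and 0.17 after IFNγ, and among those that fell -0.55 and -0.27, which is a description, since these genes were selected by their values after medium. Tnnt2 had 1.90 after IFNγ and 1.55 after medium, Fbln2 1.92 and 2.42, Smad7 0.64 and 0.61, Itgb3 1.08 and 1.01, and Nt5e 1.22 and 1.22.

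**Figure D4:**
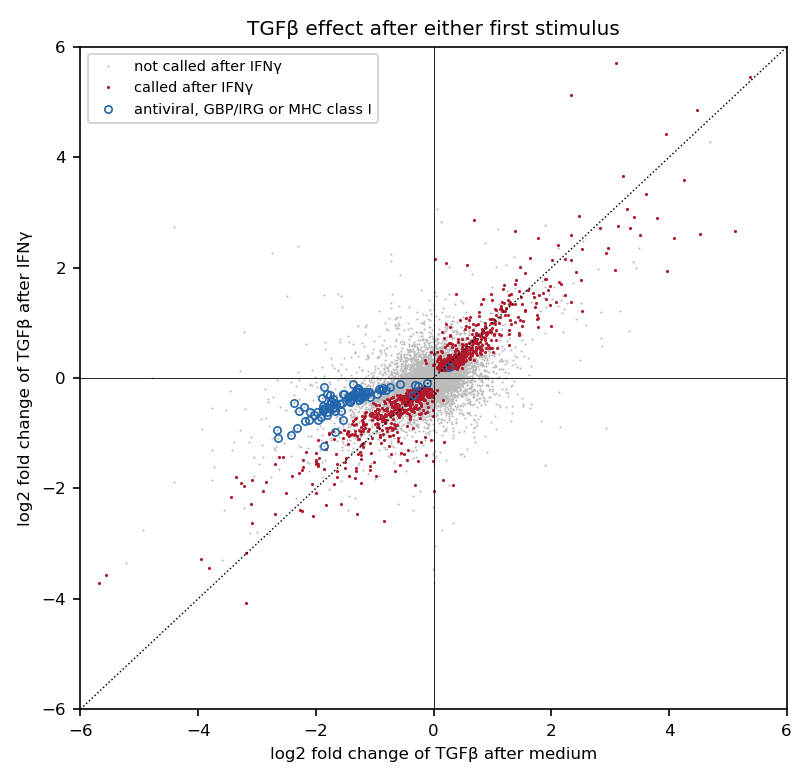
Log2 fold change of TGFβ against medium as second stimulus, after IFNγ (y axis) and after medium (x axis), for the 14935 genes tested, of which 4 lie outside the axes; genes called after IFNγ are red, interferon-type genes are circled in blue and the dotted line marks equal values. Of the red genes 537 lie above 0 and 536 below 0 on both axes, and most blue circles lie above the line at negative values of both axes.

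The difference between the 2 TGFβ effects was tested directly as an interaction, and 0 genes passed (lowest adjusted p = 0.67 in edgeR). DESeq2 also called 0, and without the 2 h library of medium then medium edgeR called 20. At an unadjusted p below 0.05 there were 1078 genes, or 7.22%. With all libraries no single gene is thus shown to respond differently after IFNγ, and the values are given as they stand. For interferon-type genes the 2 effects were further apart at 12 and 24 h than at 2 and 6 h. The median difference of the antiviral genes between TGFβ and medium was -0.43, -0.18, -0.46 and -0.39 after IFNγ for 2, 6, 12 and 24 h, and -0.42, -0.24, -3.06 and -1.96 after medium for the same durations. For GTPases it was -0.77, -0.39, -0.81 and -0.60 after IFNγ against -0.80, -0.69, -3.88 and -2.47 after medium, and for MHC class I genes -0.33, -0.18, -0.39 and -0.30 against -0.47, -0.39, -2.30 and -2.01. At 2 h the values after both first stimuli were close, and at 12 and 24 h those after medium were far lower. The 6 h values after medium rest on the 6 h medium library that stood apart from the other medium controls. With that library left out, the list medians of the fitted log2 fold changes after medium were -1.75 for antiviral genes, -1.97 for GTPases and -1.38 for MHC class I genes. With it they were -1.43, -1.805 and -1.23.

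The levels behind these differences moved on both sides. Oas2 lay at 112.5, 85.9, 135.2 and 136.1 CPM in medium then medium and at 57.8, 44.9, 4.51 and 9.37 CPM in medium then TGFβ, with an interaction of 1.73 (SE 0.86, unadjusted p = 0.055, adjusted p = 0.686). The IFNγ then medium libraries of 12 and 24 h, at 52.1 and 55.1 CPM, were thus lower than the medium controls, and the IFNγ then TGFβ libraries, at 23.7 and 26.4 CPM, were higher than those of medium then TGFβ. Over the antiviral genes, the median of the 12 and 24 h libraries minus the 2 and 6 h libraries was -0.87 for IFNγ then TGFβ, -0.80 for IFNγ then medium, -1.89 for medium then TGFβ and 0.37 for medium then medium. The last value includes the 6 h medium library that stood apart.

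Outside the interferon genes a few pathway members had small unadjusted p-values for the interaction. Eng fell after medium (-0.58, adjusted p = 5.21e-05) and had -0.08 after IFNγ (interaction 0.50, unadjusted p = 0.000494). Inhba had 0.33 after IFNγ and -0.14 after medium (interaction 0.48, unadjusted p = 0.00141), and Skil 0.31 and 0.06 (interaction 0.25, unadjusted p = 0.00359). The adjusted p of these 3 was 0.67 to 0.683. Their values after medium and their interactions include the 6 h medium library that stood apart, and are not given without it. Of the 541 genes that rose after IFNγ, 4 had the opposite sign after medium, namely Inhba, Klf7, Lrp4 and Dusp16, named here after their values were seen, and of the 543 that fell 7 did, among them Car12, a carbonic anhydrase (-0.39 and 0.17). Without the 6 h medium library 16 of 809 and 27 of 772 had the opposite sign.

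**Figure D5:**
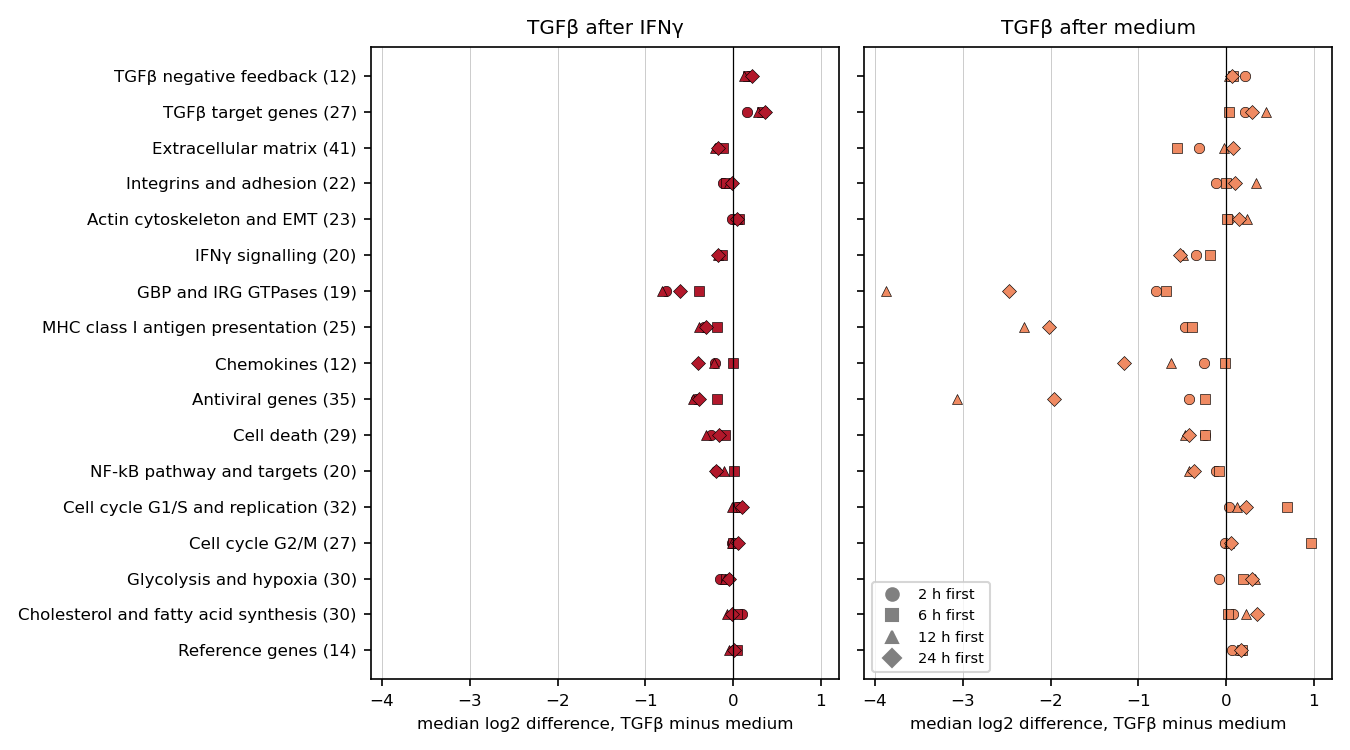
Median difference in log2 CPM between TGFβ and medium as second stimulus, per gene list (number of genes tested in parentheses), after IFNγ (left) and after medium (right), with 1 symbol per duration of the first stimulation. The medians of the GTPases, MHC class I and antiviral genes reach -3.88 after medium and no lower than -0.81 after IFNγ.

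Whether the TGFβ effect changed with the length of IFNγ exposure was tested as a difference of slopes on log2 duration. No gene passed (0 of 14935, lowest adjusted p = 0.892 in edgeR), and 141 genes, or 0.944%, had an unadjusted p below 0.05. This share is smaller than the threshold itself, so the slope test may miss changes. Its outcome does not show that the effect was the same at all durations. Pmepa1 was higher with TGFβ at each of the 4 durations by similar amounts, and so were Itgb3 and Nt5e, as their values above show. With 1 library per duration and sequence, a change at a single duration has no replicate check.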

How the data were processed

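Raw read counts per gene, as whole numbers and not normalised, were deposited by the authors in a single table. The submitters' processing notes name HISAT and GRCm38. Which tool and strand setting produced the counts is not given in the sources used, so overlapping antisense genes and near-identical families are uncertain. All 29 columns were matched to samples by name and 0 were left over.

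The filter filterByExpr (minimum count 10) left 14935 of 28229 genes for testing, and TMM factors scaled the libraries. A quasi-likelihood model in edgeR 4.0.16 (R 4.3.3) with terms for stimulus sequence and for duration was fitted to all 29 libraries (residual degrees of freedom 18). The p-values of this two-sided test were adjusted by the Benjamini-Hochberg method over all genes tested, with 0.05 as threshold, unless unadjusted is written. Fold changes are log2 values, and their SE was obtained by dividing them by the square root of F. The duration term is shared by all sequences, so only the fit of the 8 libraries alone pairs the 2 sequences strictly. Duration effects that differed between sequences, as in the antiviral genes, stay in the spread of the all-library fit. Deviations from the group means correlated by 0.281, 0.345, 0.218 and 0.401 between libraries of equal duration (2, 6, 12 and 24 h). No 2 libraries of either group agreed within sampling noise (lowest chi-square per degree of freedom 9.55). On simulated data of 14536 genes, the fit recovered 99% of 100 genes changed 2-fold, with 0.0767% false calls among unchanged genes. The changed genes lay above 5 CPM, and each gene otherwise had the same mean in all libraries. Other differences by sequence or duration were thus absent, and the recovery of real changes may be lower. The precision of single values is limited by counting at the totals given above and by 4 libraries per sequence.

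The genes named are the 12 highest and 12 lowest called fold changes (same direction at all durations, at least 5 CPM on average in 1 group, no predicted genes), all members of the TGFβ pathway lists, the 4 smallest p-values of every other list, called members of short counts, and 7 IFNγ readouts. Lists were written from textbook knowledge. The comparison, members and lists were chosen with earlier results of these data known. Alternatives were DESeq2 1.42.0, other scaling and filters, fewer libraries and fits without the duration term. Promoters come from RefSeq (GRCm38.p6), found by symbol for 67.4% of the genes tested, and a gene counts as holding a motif if any listed start has it. Some members of the lists are counted but not reported here by name.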

Additional observations from a re-analysis of the deposited data

Results flagged for a closer look

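Pde8b, a phosphodiesterase, lay at 9.7 CPM in the 2 h library of IFNγ then medium against 7.16 to 7.34 CPM in the other 3, a gap of 0.93 of the range of the 4. It was the single case among 62 sets of 4 libraries examined, where chance gives about 1 in 20. The call of Pde8b as lower with TGFβ held without this library, and its values with TGFβ were 2.25 to 3.07 CPM.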

How the results depend on the processing

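The count of genes called for TGFβ after IFNγ (1084) was 488 with no replicate block, that is without the duration term. The 8 libraries alone gave 3177 with the replicate block and 713 without it. Leaving out a duration or a library gave 430 (without 12 h) to 1581 (without the 6 h medium library), with 517 without 2 h, 597 without 24 h, 689 without the 6 h library of IFNγ then TGFβ, and 686 and 702 without the 12 h and 24 h libraries of IFNγ then medium. Other scaling, filters, DESeq2 and the fit of 16 libraries stayed within 1.5 times. The interaction gave 0 to 20 genes when a duration or library was left out, with 20 without the 2 h library of medium then medium, and the duration trend gave 1 gene without the low-count filter. The cause of these changes was not tested. Of the 111 called genes named, 62 kept their call in all 12 fits that left out a duration or a library of the 2 sequences, and 42 lost it with no replicate block. Mmp19, Plk2, Dusp5, Col5a3, Vegfa, Tgfbr3 and Id1 kept it in all 12 fits but lost it with no replicate block (adjusted p from 0.0546 to 0.32). No named gene changed sign except Cxcl9, near 0 CPM, with -0.75 to 0.31 over these fits. Depth limits statements on genes below 1 CPM.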
